A study of Mus musculus with 8 samples.

Results

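The 10 genes described here encode the fibrillins Fbn1 and Fbn2, elastin (Eln), the fibulins Fbln1, Fbln2, Fbln5 and Efemp2, the microfibril-associated glycoproteins Mfap2 and Mfap5, and the interface protein Emilin1. They were taken by name from all 8 libraries, and all 10 of 10 were found among 37048 summed features and lay within the 15185 genes that passed the low-count filter and were tested. The libraries come from white adipose tissue of female wild-type C57BL/6J mice. The 4 control libraries are from PBS injection and the other 4 from endostatin at 50 mg/kg, both into the tail vein in the daytime, with tissue taken 2 h later and food withheld in between. The study asks what endostatin, an inhibitor of vessel growth released from collagen XVIII, does to gene expression in this fat depot. The labels name 2 batches, each with 2 control libraries (1 and 2, then 3 and 4) and the endostatin libraries of the same numbers. Whether the 4 animals that the design mentions stand for a group or for the study is not said, and libraries are not linked to animals. A p-value here therefore reflects variation among libraries, some of which may be technical.

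Elastic fibres give tissues recoil. They consist of a core of crosslinked elastin laid on a scaffold of microfibrils, whose main subunit is fibrillin. Fibulins carry and align tropoelastin, lysyl oxidases crosslink it, and microfibrils also store latent growth factors of the TGF-beta family. White fat is known as a source of fibrillin, and the tail that furin cuts from profibrillin is the circulating peptide asprosin. Endostatin is known to bind fibulins of the Fbln1 and Fbln2 kind in vitro.

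The total estimated count ran from 15826783 to 23786594 per library. The description of endostatin 4 repeats the read file stub of endostatin 3, but of 20152 genes with reads in either library 19820 had unequal counts, and both labels were kept. The labels call the tissue epididymal although the mice are female. A list of 6 adipocyte markers summed to 9327 to 18976 TPM (a level scaled to transcript length and to the library) in every library, lowest in control 3. Control 3 and endostatin 4 stood apart: 11 oviduct and uterus markers summed to 577 and 394 TPM there, against 22.3 to 53.6 TPM in the other 6 libraries. Of the 11, 7 were higher by TPM in both of these than in all other libraries. The share of all genes tested was 13.8%, but by CPM, and only 6 of the 11 were among the genes tested. Foxj1, Ovgp1, Pgr and Wnt7a were highest in control 3 but had only 0, 0.719, 5.08 and 0.290 TPM in endostatin 4. Endostatin 1 exceeded endostatin 4 for Pgr (11.7 TPM) and Wnt7a (0.891 TPM). Ltf alone made 298 TPM of the sum in endostatin 4, against 87.9 TPM in control 3. Treatment differences of the members are given below with and without control 3 and endostatin 4. Batch differences, values within batch 2 and interactions were fitted only with both included. The sum of 9 skeletal muscle markers was high in control 1 (322 TPM) and control 4 (553 TPM) and 90.1 to 157 TPM elsewhere. All 8 hepatocyte markers had a log2 fold change above 0 between endostatin and control, beside 46.6% of all genes, with a median of 3.67. Of these, 0 of 8 passed the threshold, and 5 were higher at an edgeR unadjusted p under 0.05, beside 2.3% of all genes. All 8 were highest in endostatin 4, but all except Trf were lower in endostatin 3 than in control 1 and control 2. Alb had 88.6, 51.0, 10.0 and 18.3 TPM in control 1 to 4. In endostatin 1 to 4 it had 194, 257, 17.2 and 487 TPM. The part of such other tissue in the results below was not tested.

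Upstream sequence is shown for 4 members that represent the 2 library patterns described below, Fbn1 and Fbln2 for one and Mfap2 and Emilin1 for the other. From RefSeq's promoter table on build GRCm38.p6, 12 windows of 7 of the 10 members were used. No window was used for Eln, Fbn2 and Mfap5, whether or not that table holds one. Each line holds the 250 bases before an annotated start, 5′ to 3′ on the gene's strand, and capitals mark matches to any of the motifs searched on both strands.
Fbn1 (chr2:125506439-125506688, minus strand): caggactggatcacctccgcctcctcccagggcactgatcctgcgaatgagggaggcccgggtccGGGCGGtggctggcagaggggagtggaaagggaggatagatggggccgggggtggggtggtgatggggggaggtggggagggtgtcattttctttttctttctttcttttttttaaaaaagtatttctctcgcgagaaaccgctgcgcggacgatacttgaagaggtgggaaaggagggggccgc
Fbln2 (chr6:91212514-91212763, plus strand): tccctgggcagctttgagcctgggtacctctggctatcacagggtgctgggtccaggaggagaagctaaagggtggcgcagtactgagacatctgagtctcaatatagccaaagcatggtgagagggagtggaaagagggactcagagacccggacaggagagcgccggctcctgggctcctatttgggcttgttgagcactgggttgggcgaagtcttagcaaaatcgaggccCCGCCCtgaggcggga
Mfap2 (chr4:141010174-141010423, plus strand): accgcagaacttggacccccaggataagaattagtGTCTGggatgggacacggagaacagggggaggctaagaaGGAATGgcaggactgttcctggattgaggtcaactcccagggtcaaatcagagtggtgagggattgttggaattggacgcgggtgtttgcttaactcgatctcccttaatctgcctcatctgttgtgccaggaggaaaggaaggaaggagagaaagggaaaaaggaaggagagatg
Emilin1 (chr5:30913536-30913785, plus strand): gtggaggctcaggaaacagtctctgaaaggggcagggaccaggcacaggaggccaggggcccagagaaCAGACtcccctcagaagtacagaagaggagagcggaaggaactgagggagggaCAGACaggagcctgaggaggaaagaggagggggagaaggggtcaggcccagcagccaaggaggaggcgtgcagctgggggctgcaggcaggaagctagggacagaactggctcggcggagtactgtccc

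The motifs searched included the GC box bound by SP factors, spelled GGGCGG. The binding sequence of AP-1, a factor induced by many stimuli, was searched as TGANTCA. For the core promoter element known as the TATA box the letters were TATAAA. The motif of SMAD factors, which carry TGF-beta signals, was taken as CAGAC. For TEAD factors, the partners of YAP in sensing stiffness, it was CATTCC, and the CArG box of serum response factor was searched too. Matches of different motifs did not overlap in the windows of the members. Fbn1 and Fbln2 each held 1 GC box, a match found in 32.7% of all 32851 windows of this length. Emilin1 held 2 CAGAC matches, a motif found in 42.2% of windows. The Mfap2 window printed held 1 CAGAC and 1 TEAD match (12.6% of windows), and the other Mfap2 window held 2 GC boxes instead. None of the 12 windows held an AP-1 match (6.75% of all windows), a TATA box (12.4%) or a CArG box (1.47%). G and C made up 59.2% of the Fbn1 window, 58.8% of Fbln2, 63.2% of Emilin1 and 51.2% of the Mfap2 window printed, against a median of 52.4% over all windows.

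In TPM the fibulins Fbln1 and Fbln2, the microfibril glycoprotein Mfap5 and the fibrillin Fbn1 stood highest. Over the 8 libraries Fbln1 had 128 ± 45 TPM (SD), Fbln2 122 ± 32, Mfap5 108 ± 29 and Fbn1 101 ± 38. Neighbours in this order did not differ beyond the spread, since Fbln1 exceeded Fbln2 in 5 of 8 libraries, Fbln2 exceeded Mfap5 in 6 and Mfap5 exceeded Fbn1 in 6. Fbn1 exceeded Eln, the elastin precursor, in 8 of 8 libraries, with Eln at 62.0 ± 18.0 TPM. Fbln5 (51.4 ± 20.7 TPM) and Efemp2 (41.0 ± 6.9 TPM), both needed to assemble elastic fibres, exchanged places in 4 of 8 libraries. Emilin1 (21.3 ± 6.8 TPM) and Mfap2 (18.8 ± 9.2 TPM) were next, and Fbn2, the fibrillin known best from development, was lowest in 8 of 8 libraries at 1.51 ± 0.93 TPM.

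**Figure D1:**
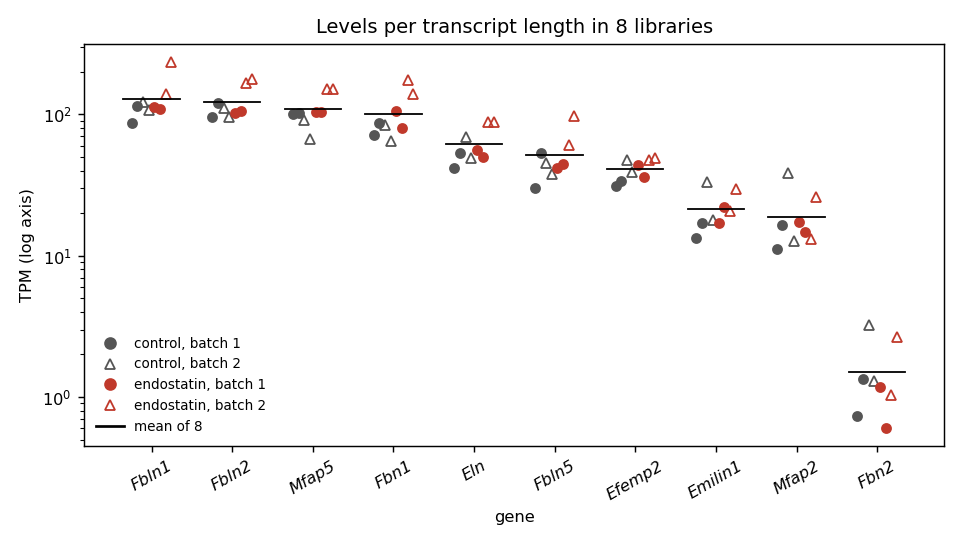
TPM on a log axis for each of the 10 genes in each library, ordered by the mean of 8 (black line). Grey marks control and red endostatin, filled circles batch 1 and open triangles batch 2. Fbn2 lies between 0.607 and 3.21 TPM, below every other member.

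No member differed past the threshold between the groups (adjusted p under 0.05 in edgeR's quasi-likelihood test with batch as a term). CPM below are counts scaled to library size with TMM factors. The count was 0 of 10 higher and 0 of 10 lower, beside 0% of all genes tested, and the adjusted p was 1.00 for each member. DESeq2 called 0 of 10, beside 0.0263% of all genes, and limma-voom called 0 of 10, beside 0%. At an unadjusted p under 0.05 edgeR and DESeq2 each had 3 of 10 members, beside 3.19% and 3.95% of all genes, and limma-voom had 2, beside 3.09%. All 3 of edgeR's were positive, beside 2.3% of all genes. The log2 fold change was above 0 for 8 of 10 members, beside 46.6% of all genes, with a median of 0.34 against -0.01 over all genes. For none of the 10 did all 4 endostatin libraries lie above all 4 control libraries, which 0.942% of all genes did.

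Below that threshold the members fell into 2 patterns across libraries. Fbn1, Mfap5, Eln, Fbln1, Fbln2, Fbln5 and Efemp2 were highest in endostatin 3 and endostatin 4, the 2 endostatin libraries of batch 2. That made 7 of 10 members, beside 7.02% of all genes. Fbn2, Mfap2 and Emilin1 were instead highest in control 3 and endostatin 4, where oviduct and uterus markers were raised, which made 3 of 10 members beside 13.8% of all genes. Efemp2 joined the 7 only narrowly, with 31.0 CPM in endostatin 3 against 30.9 CPM in control 3, and it went with both patterns. Pearson's r of its log2 CPM over the 8 libraries was 0.48 to 0.86 with the others of the 7. With Fbn2, Mfap2 and Emilin1 it was 0.65 to 0.81. The split was not clean for Eln and Fbln1 either. With Fbn2, Mfap2 and Emilin1 in turn, r was 0.60, 0.34 and 0.62 for Eln and 0.53, 0.40 and 0.61 for Fbln1. It was at most 0.50 for Fbn1, Mfap5, Fbln2 and Fbln5. These patterns were noticed in the values and are given as a description. The members were chosen with earlier results of these data known, so the shares over all genes serve as a reference only. In bulk tissue fewer cells of a type and less RNA per cell cannot be told apart.

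**Figure D2:**
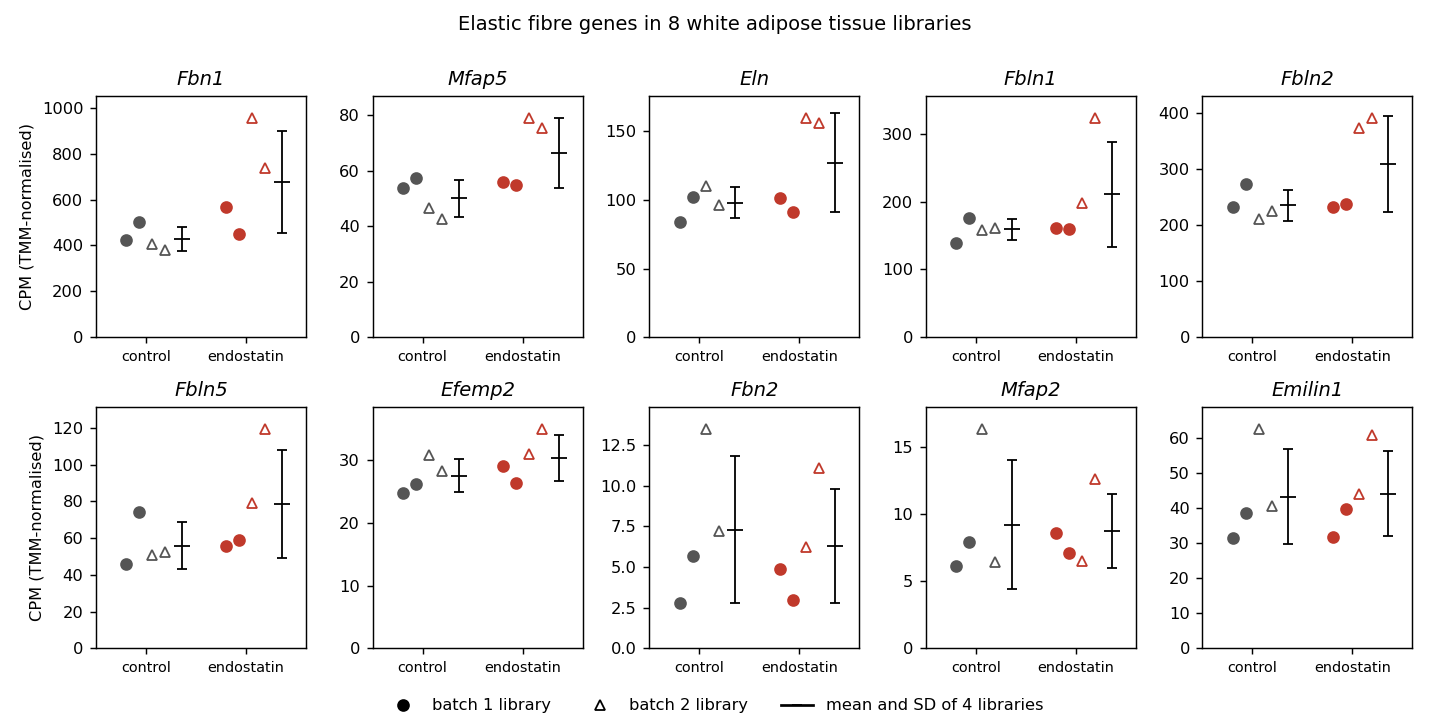
CPM (counts scaled to library size with TMM factors) of each member by library, with the mean and SD of 4 libraries at the right of each group. In the first 7 panels the open red triangles of batch 2 lie highest, and in the last 3 panels 1 grey and 1 red triangle do.

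The fibrillin gene Fbn1, whose product forms the microfibril, showed the widest gap between group means. It stood at 425, 503, 406 and 379 CPM in control 1 to 4 and at 567, 448, 957 and 739 CPM in endostatin 1 to 4. The 2 endostatin libraries of batch 2 lay far above all others, while endostatin 2 lay within the control range. The log2 fold change was 0.62 ± 0.23 (SE), a fold of 1.54 with a 95% interval of 0.09 to 1.15 on the log2 scale (edgeR unadjusted p = 0.0273, adjusted p = 1.00). Within batch 1 it was 0.13 ± 0.22 and within batch 2 1.11 ± 0.22. Without control 3 and endostatin 4 it was 0.52, with 957 CPM in endostatin 3 against 379 CPM in control 4 as the batch 2 pair.

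Fbn2, the other fibrillin, did not follow it. It had 2.80, 5.66, 13.5 and 7.18 CPM in the control libraries and 4.86, 2.97, 6.25 and 11.1 CPM in the endostatin libraries, from 47 to 244 reads per library. Control 3 and endostatin 4 were the highest of their groups, and the groups overlapped. The log2 fold change was -0.18 ± 0.33, with an interval of -0.96 to 0.59, and leaving out 1 library moved it between -0.36 (without control 1) and 0.03 (without control 3). The ratio of Fbn1 to Fbn2 TPM, which needs no scaling between libraries, was 26.2 in control 3 and 52.6 in endostatin 4. It was 170 in endostatin 3, the highest of the 8, and 49.5 to 132 in the other 5.

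The microfibril-associated glycoproteins, small proteins that decorate fibrillin, split in the same way. Mfap5 had 53.8, 57.2, 46.5 and 42.5 CPM in control 1 to 4 and 56.0, 55.0, 79.2 and 75.4 CPM in endostatin 1 to 4. In batch 1 the 4 libraries lay between 53.8 and 57.2 CPM, and in batch 2 both endostatin libraries exceeded both controls. Its log2 fold change was 0.40 ± 0.16, with an interval of 0.03 to 0.77 (edgeR unadjusted p = 0.0383, adjusted p = 1.00), from -0.00105 ± 0.11 in batch 1 and 0.80 ± 0.11 in batch 2. Mfap2 had 6.13, 7.93, 16.4 and 6.47 CPM in the controls and 8.63, 7.15, 6.52 and 12.6 CPM after endostatin. Its 2 high values were again control 3 and endostatin 4, and its log2 fold change was -0.05 ± 0.33, which turned to 0.31 without control 3 and 0.15 without endostatin 3 and was -0.23 without control 4. The ratio of Mfap5 to Mfap2 TPM was 2.36 in control 3 and 11.4 in endostatin 3, the extremes of the 8 libraries.

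Elastin itself followed Fbn1. Eln had 83.9, 102, 110 and 96.3 CPM in control 1 to 4 and 102, 91.0, 160 and 156 CPM in endostatin 1 to 4. The 2 libraries above 150 CPM were those of endostatin in batch 2, and the others lay between 83.9 and 110 CPM. The log2 fold change was 0.33 ± 0.14, with an interval of 0.01 to 0.65 (edgeR unadjusted p = 0.0439, adjusted p = 1.00), from 0.05 ± 0.14 in batch 1 and 0.62 ± 0.14 in batch 2. Without control 1 and control 4, where skeletal muscle markers were high, it was 0.21. The TPM ratio of Fbn1 to Eln ranged only from 1.21 in control 3 to 1.99 in endostatin 3.

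Among the fibulins, the 2 that endostatin is known to bind had similar differences. Fbln1 had 139, 177, 159 and 161 CPM in the controls and 162, 160, 198 and 324 CPM after endostatin. Endostatin 4 was far above the other 7 libraries, and without it the log2 fold change went from 0.37 ± 0.20 to 0.14. Fbln2 had 232, 273, 210 and 225 CPM in the controls and 231, 238, 373 and 391 CPM after endostatin. Here endostatin 3 and endostatin 4 were close to each other and above all the rest, with a log2 fold change of 0.35 ± 0.19 that was 0.21 without control 3. Within batch 1 that of Fbln2 was -0.11 ± 0.14 and within batch 2 0.81 ± 0.15.

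Fbln5, which tethers elastin to cells and to the scaffold, had 46.0, 74.3, 50.7 and 52.6 CPM in the controls and 55.7, 59.1, 79.2 and 119 CPM after endostatin. The groups overlapped, since control 2 exceeded both endostatin libraries of batch 1. The log2 fold change was 0.44 ± 0.25, with an interval of -0.15 to 1.03, and it was 0.21 without endostatin 4 and 0.69 without control 2. Efemp2, the fibulin that brings lysyl oxidase to tropoelastin, varied least, with 24.8, 26.3, 30.9 and 28.3 CPM in the controls and 29.2, 26.4, 31.0 and 35.0 CPM after endostatin. Its log2 fold change was 0.14 ± 0.09, with an interval of -0.07 to 0.35. The values within the batches were close, 0.12 ± 0.14 and 0.16 ± 0.14, and endostatin 3 exceeded control 3 only from 30.9 to 31.0 CPM.

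Emilin1, found where elastin meets the microfibril, had 31.5, 38.6, 62.7 and 40.5 CPM in the controls and 31.9, 39.9, 44.2 and 60.8 CPM after endostatin. Control 3 and endostatin 4 were near 60 CPM and the other 6 between 31.5 and 44.2 CPM. The log2 fold change was 0.03 ± 0.17, with an interval of -0.37 to 0.43. Leaving out 1 library moved it between -0.08 (without control 4) and 0.15 (without control 3).

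The difference between groups was thus wider in batch 2 than in batch 1 for most members. Both batch 2 controls carried markers of other tissue. Control 3 had raised oviduct and uterus markers and the lowest adipocyte sum, and control 4 the highest skeletal muscle sum (553 TPM). Endostatin 4 had a raised oviduct and uterus sum too. The part of these tissues in the batch 2 values was not tested. In batch 2 both endostatin libraries exceeded both controls for 7 of 10 members, beside 14.7% of all genes. In batch 1 they did for 1 of 10 (Efemp2), beside 16.1%. The 7 of batch 2 are the genes of the first pattern, so this count restates it. The median log2 fold change of the 10 was 0.03 in batch 1 and 0.66 in batch 2, against 0.00 and -0.02 over all genes. Differences above 0 were found for 6 of 10 in batch 1, beside 50.6%, and for 8 of 10 in batch 2, beside 46.8%. A fold of at least 1.5 in batch 2 was reached by 6 of 10, beside 7.7%. The test of that difference, the interaction of batch and treatment, passed for 0 of 10 members, beside 0% of all genes (edgeR adjusted p = 0.997 for 9 of them and 1.00 for Emilin1). At an unadjusted p under 0.05 it had 5 of 10, beside 3.47% of all genes, all 5 positive, beside 2.19%. The interaction was above 0 for 7 of 10, beside 47.8%. In edgeR's fit it was 0.80 ± 0.15 on the log2 scale for Mfap5 (unadjusted p = 0.00120, adjusted p = 0.997), 0.92 ± 0.20 for Fbln2, 0.98 ± 0.31 for Fbn1, 0.57 ± 0.20 for Eln and 1.01 ± 0.38 for Fbln5.

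**Figure D3:**
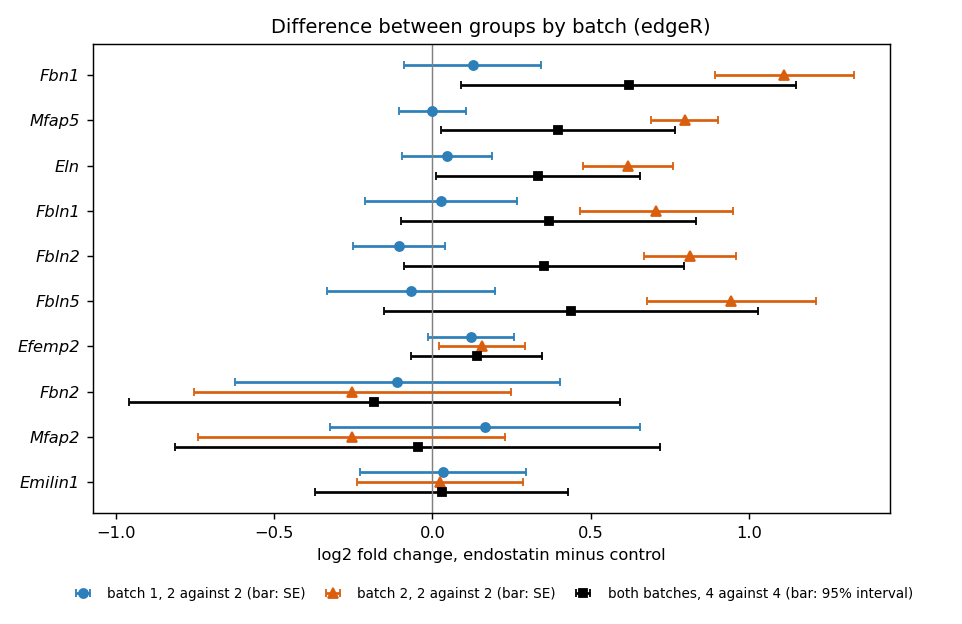
Log2 fold changes of endostatin minus control from edgeR for batch 1 (circles, bar SE), batch 2 (triangles, bar SE) and both batches (squares, bar 95% interval). Fbn1 lies at 0.13 in batch 1 and 1.11 in batch 2, while Efemp2 and Emilin1 lie at nearly the same place in both.

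The batch term of the main fit, batch 2 minus batch 1, averages over control and endostatin libraries. It was positive for all 10 members, beside 52.1% of all genes, and 0 of 10 passed the threshold, beside 0.0395%. At an unadjusted p under 0.05 there were 4 of 10, beside 9.96%, all 4 positive, beside 5.42%. Fbn2 had the widest, a log2 difference of 1.22 ± 0.34, followed by Emilin1 (0.55 ± 0.17), Mfap2 (0.49 ± 0.33), which was not among the 4, and Eln (0.43 ± 0.14). Batch 2 contains both libraries with oviduct and uterus markers. In the controls alone, both batch 2 libraries lay below both of batch 1 for Fbn1, Mfap5 and Fbln2. The positive batch term of these genes thus came from the endostatin libraries. Both batch 2 controls lay above both of batch 1 for Fbn2, Efemp2 and Emilin1. For Eln, Fbln1, Fbln5 and Mfap2 the controls of the batches overlapped.

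Markers of other cell types moved with both patterns. Of all genes tested, 7.02% were highest in endostatin 3 and endostatin 4 and 13.8% in control 3 and endostatin 4, by CPM. The marker counts here and below are by TPM, so these shares are a loose reference for them. All 6 macrophage markers were higher in endostatin 3 and endostatin 4 than in every other library, and their sum was 1165 and 1267 TPM there against 566 to 841 TPM elsewhere. The control range of that sum was 566 to 841 TPM and the endostatin range 695 to 1267 TPM. Of 8 mesothelial markers 5 were highest in the same 2 libraries, with sums of 267 to 656 TPM in the controls and 286 to 592 TPM after endostatin. Another 2 of the 8 were highest in control 3 and endostatin 4, and control 3 had the highest sum. Of 12 fibroblast and progenitor markers 5 were highest in endostatin 3 and endostatin 4, with sums of 1966 to 2812 TPM in the controls and 2270 to 4062 TPM after endostatin. Of the same 12, 4 (Pdgfrb, Cd34, Lum and Col1a1) were instead highest in control 3 and endostatin 4, so this list went with both patterns. The part of these cells in the pattern of Fbn1, Eln and the fibulins was not tested. Without control 3 and endostatin 4 the log2 fold changes of the 7 genes were 0.52 for Fbn1, 0.29 for Mfap5, 0.27 for Eln, 0.17 for Fbln2, 0.15 for Fbln5, 0.12 for Efemp2 and 0.11 for Fbln1.

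The pattern of Fbn2, Mfap2 and Emilin1 went with most of the oviduct, uterus and smooth muscle markers. Of 7 smooth muscle markers 6 were higher by TPM in control 3 and endostatin 4 than in the other 6 libraries, beside 13.8% of all genes by CPM. The sum of the 7 was 1658 and 2754 TPM there against 909 to 1355 TPM elsewhere. Of the oviduct and uterus list, Pax8 and Ltf, which encode a transcription factor and lactoferrin, had 40.3 and 87.9 TPM in control 3. They had 12.7 and 298 TPM in endostatin 4, and both were at 0 in control 1, control 2 and endostatin 2. Pgr, Ovgp1, Wnt7a and Foxj1 of the same list were high in control 3 but not in endostatin 4. Without these 2 libraries Mfap2 had a log2 fold change of 0.11, Emilin1 one of 0.06 and Fbn2 one of -0.14. The part of oviduct, uterus or smooth muscle tissue in the levels of the 3 genes was not tested.

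**Figure D4:**
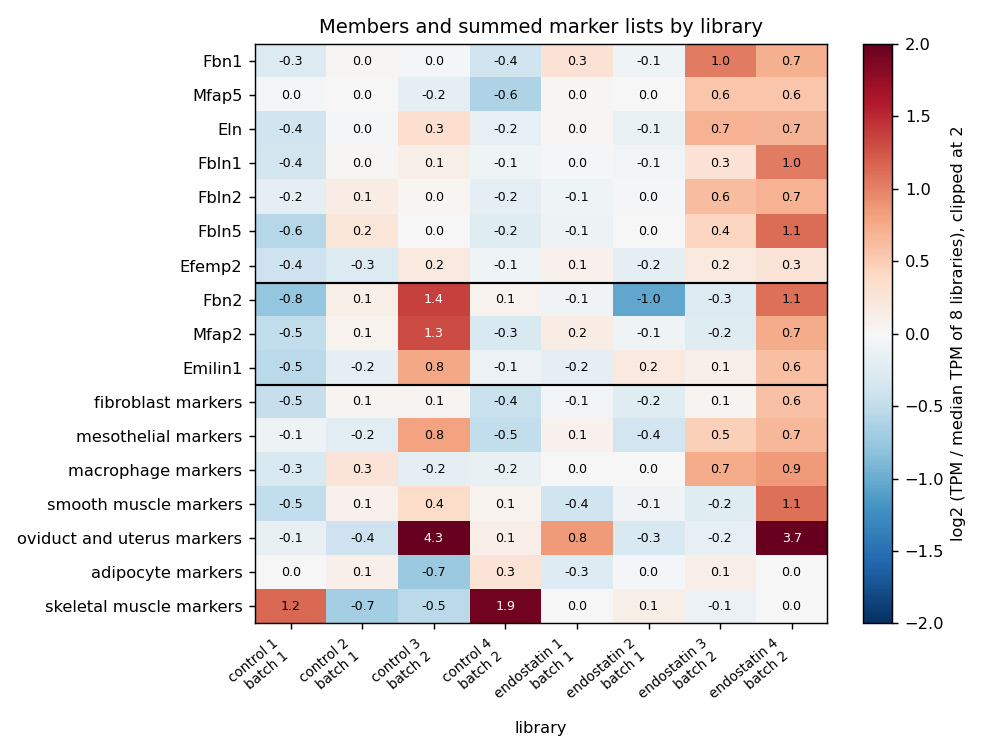
Log2 ratio of TPM to the median of the 8 libraries for the 10 members and for 7 summed marker lists, with the value printed in each cell and the colour scale ending at 2. The upper 7 genes are red in endostatin 3 and 4, as are the macrophage markers, and the 3 genes below them are red in control 3 and endostatin 4, as are the oviduct and uterus markers.

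The genes whose log2 CPM was most like that of Fbn1 over the 8 libraries were Gas7, Loxl1, Itgam, Fstl1 and Plekho2, out of 9989 genes that averaged 10 CPM or more. Pearson's r ran from 0.957 to 0.970 over these 8 points, with endostatin 3 and endostatin 4 the highest for each of these genes. Loxl1 encodes a lysyl oxidase that crosslinks elastin, Itgam an integrin subunit of myeloid cells and Fstl1 a secreted glycoprotein. For Eln the closest were Ncf1, Plac9a, Cerk, Gpc3 and Acvrl1, with r from 0.956 to 0.973. Ncf1 encodes a subunit of the phagocyte oxidase and stood at 41.0 and 37.7 CPM in endostatin 3 and 4 against 15.4 to 20.8 CPM in the other 6.

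Of 47 other genes of elastic fibre assembly and turnover, 44 were tested and 0 passed in either direction. Of the 44, 35 had a log2 fold change above 0, beside 46.6% of all genes, the share to set beside each list below too. Their median was 0.16, with 0.05 in batch 1 and 0.28 in batch 2. All 5 lysyl oxidases were above 0, with a median of 0.37, 0.14 in batch 1 and 0.49 in batch 2. Loxl1 had 105 ± 11 CPM in the controls and 148 ± 27 CPM after endostatin (log2 fold change 0.49 ± 0.15, unadjusted p = 0.0106), and Loxl2 had 82.1 ± 14.5 and 107 ± 18 CPM (0.37 ± 0.13). Of the latent TGF-beta binding proteins, which sit on microfibrils, 3 of 4 were above 0. Ltbp3 had a log2 fold change of 0.30 ± 0.11 and Ltbp4, a partner of Fbln5, one of 0.23 ± 0.14, while Ltbp2 had -0.29 ± 0.25. Ltbp4 was 0.14 without endostatin 4. Ltbp2 was -0.11 without control 1, -0.09 without control 4 and -0.49 without control 3, and 0.22 without both control 1 and control 4. Loxl2 was 0.19 without those 2 controls.

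Proteins that process fibrillin showed small differences. Of 10 such genes, furin and the ADAMTS and ADAMTS-like proteins, 7 were above 0, with a median of 0.13. Those with the smallest p in each direction were Adamtsl3 (0.25 ± 0.13) and Adamtsl5 (0.19 ± 0.12) above 0 and Adamts17 (-0.34 ± 0.38) and Adamts6 (-0.24 ± 0.46) below it. Adamtsl3 was 0.15 without control 3 and 0.66 with a transcript length offset, and Adamtsl5 was 0.08 without endostatin 3 and 0.07 with that offset. Without control 3 Adamts17 was 0.00603 and Adamts6 0.22, and without endostatin 3 they were -0.20 and 0.03. Among the related glycoproteins 6 of 9 were above 0, with a median of 0.07. Emilin2, a relative of Emilin1, stood at 110 ± 21 CPM in the controls and 169 ± 49 CPM after endostatin, and its log2 fold change of 0.60 ± 0.21 was 0.47 in batch 1 and 0.73 in batch 2. Efemp1, another fibulin, had 0.43 ± 0.18, Mfap3l had -0.18 ± 0.16, and Mfap4, a microfibril protein of vessels and smooth muscle, had 25.4 ± 27.1 and 10.1 ± 4.5 CPM (-1.04 ± 0.62). The Mfap4 difference rested on control 3, with 66.0 CPM against 10.0 to 14.6 CPM in the other controls. It was -0.27 without control 3, -0.58 without endostatin 3 and -0.56 without control 3 and endostatin 4. Emilin2 stood at 241 CPM in endostatin 3, and without that library its log2 fold change was 0.38. Efemp1 was 0.25 without control 3 and endostatin 4, and Mfap3l was -0.07 without control 3.

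Of the proteases that cleave elastin, 6 of 7 tested were above 0, with a median of 0.34. Ctss, a cathepsin of macrophages, went from 29.9 ± 6.5 CPM in the controls to 47.0 ± 12.4 CPM, with a log2 fold change of 0.62 ± 0.21 that was 0.21 in batch 1 and 1.02 in batch 2. Mmp12, the macrophage elastase, had 8.53 ± 2.21 and 12.4 ± 4.1 CPM, with a log2 fold change of 0.52 ± 0.20, 0.61 in batch 1 and 0.43 in batch 2. Ctss was highest in endostatin 3 and endostatin 4 (56.9 and 58.3 CPM), as the macrophage marker sum was. Mmp12 was not, with 18.2 and 12.4 CPM in endostatin 1 and 2 against 10.1 and 8.94 CPM in endostatin 3 and 4. Without control 1 and control 4 Ctss was 0.37 and Mmp12 0.34, and with a transcript length offset Mmp12 was 1.09. Of the elastin receptor complex and integrins 8 of 9 were above 0, with a median of 0.14. Itgb5 had a log2 fold change of 0.28 ± 0.14, the sialidase Neu1 one of 0.27 ± 0.14 and Itga8 one of -0.25 ± 0.34. Single libraries moved these, to 0.18 for Itgb5 without control 2, 0.14 for Neu1 without endostatin 4 and between -0.56 (without endostatin 4) and -0.01 (without endostatin 3) for Itga8. The untested genes were Emilin3, Mmp7 and Itgb6.

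At the level of transcripts, the share of each gene's TPM held by its leading transcript did not pass a test between groups for any of the 10 members. The smallest p was 0.257, for Mfap5 (exact two-sided permutation test over 70 splits, adjusted p = 0.571 over 10 members, where 0.0286 is the smallest p possible). Fbn1-201, a coding transcript of 9847 bases, held 92.6% to 96.2% of Fbn1 in the 8 libraries. Fbln1-202 held 67.6% to 72.7% of Fbln1 while the gene's CPM varied by 2.33 times between libraries. Fbln5-203 held 76.9% to 84.5% of Fbln5, Fbln2-201 46.9% to 60.6% of Fbln2 and Mfap2-201 83.0% to 100% of Mfap2. The Mfap5 share was spread over Mfap5-207, with 34.3% to 50.8%, and 6 other transcripts. Mfap5-207 led only narrowly, with a mean of 43.73 TPM against 43.68 TPM for Mfap5-202. Mfap5-202 was the higher of the pair in control 1, endostatin 2 and endostatin 3, so the Mfap5 share tested rests on a near tie. Shares of Efemp2 (17 transcripts) and Fbn2 (few reads) varied most, from 39.0% to 70.8% for Efemp2-204 and from 52.8% to 93.6% for Fbn2-201.

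Eln stood out by how much of it was assigned to transcripts without an intact reading frame. Its 1 coding transcript, Eln-201, held 49.8% to 61.5%, transcripts annotated as retained intron 22.0% to 33.4%, and a transcript annotated for nonsense-mediated decay 13.5% to 22.8%. The libraries were made from total RNA depleted of ribosomal RNA, which keeps unspliced RNA, and the assignment between overlapping transcripts is an estimate of Salmon. Retained intron transcripts held 0% to 47.2% of Fbn2, which has few reads, 11.2% to 24.1% of Fbln2, 8.8% to 19.7% of Fbln5 and 3.6% to 7.1% of Fbn1. In Fbln2 the 2 lowest values, 13.7% and 11.2%, were those of endostatin 3 and endostatin 4, where the gene was highest. Emilin1-203, a retained intron transcript of 601 bases, was listed at 2.47 and 4.42 TPM in endostatin 1 and endostatin 2, from 12.9 and 22.2 estimated reads, and at 0 in the other 6 libraries.

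**Figure D5:**
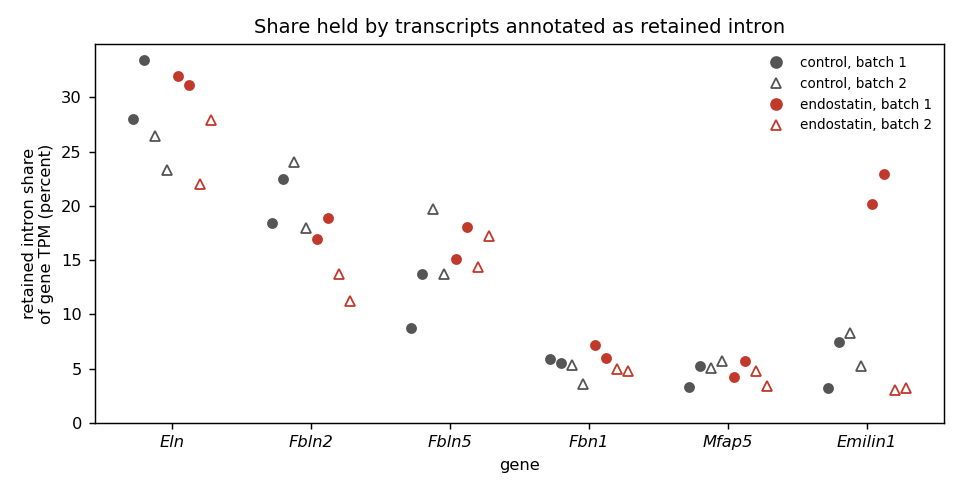
Percent of each gene's TPM held by transcripts annotated as retained intron, by library (grey control, red endostatin, filled circles batch 1, open triangles batch 2). Eln is the highest of the 6 genes shown in all 8 libraries, and the 2 high points of Emilin1 are endostatin 1 and endostatin 2.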

How the data were processed

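RNA of white adipose tissue was sequenced in 8 libraries. Per the submitters' processing notes the authors ran Salmon with build GRCm39. The deposited files hold, per transcript, Salmon's estimated counts, made by the authors and not normalised, and TPM, scaled by the authors to transcript length and library. Salmon's version, index and strand setting: not given in the sources used here. Of 115620 transcripts, 113664 (98.3%) matched GENCODE M21, used for names and transcript types. Counts were summed per gene and rounded. Genes were filtered with filterByExpr by treatment group, normalised by TMM and fitted with edgeR 4.0.16 (R 4.3.3, quasi-likelihood, batch and treatment, two-sided, Benjamini-Hochberg over all genes tested). Within-batch values and the interaction came from a fit with a batch by treatment term. CPM used TMM factors, and log2 CPM used a prior count of 2. A count of 0 allows up to 3 counts, 0.126 to 0.19 CPM, counting error only. The fit was tested on simulated data. DESeq2 1.42.0, limma-voom (limma 3.58.1), other size factors, filters and libraries left out were alternatives. Genes named from other lists were up to 2 per direction by smallest p, averaging 1 CPM or more. The members and lists were chosen with earlier results of these data known. Salmon divides reads between overlapping transcripts, so transcript values are uncertain.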

Additional observations from a re-analysis of the deposited data

How the results depend on the processing

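Under 21 settings (DESeq2, limma-voom, other size factors and filters, libraries left out, the replicate block) 0 members, 0 of the other elastic fibre genes and 0 leading transcript shares (11 alternatives) passed the threshold. The direction held for 7 of 10 members and 15 of 18 named other genes. It turned for Fbn2, which ranged from -0.36 to 0.0305 with 1 library left out, Mfap2 (-0.23 to 0.31) and Emilin1 (-0.0843 to 0.15), and for Adamts17 (-0.54 to 0.00603) and Adamts6 (-0.63 to 0.22); the cause was not tested. Without both control 3 and endostatin 4 Mfap2 was 0.11. Without both control 1 and control 4, the libraries with skeletal muscle markers, Emilin1 was -0.18 and Ltbp2 0.22. With the replicate number as a block 0 genes passed, 307 had an unadjusted p under 0.05 and Mfap2 was 0.00296. Same-numbered libraries had correlations of deviations from group means of 0.21, 0.14, -0.07 and -0.29, and not every library correlated best with its own number. These deviations still hold batch and other differences between libraries, so they cannot show whether the numbers pair libraries. Members with few reads, Fbn2 above all with 47 to 244, are limited by depth.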
